A study of Homo sapiens with 5 samples.

Results

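The clustered protocadherins on chromosome 5 were described in poly(A+) RNA-seq of the human embryonic stem cell line H9, with and without editing of CFIm25. CFIm25, encoded by NUDT21, is a subunit of the cleavage factor that binds RNA upstream of poly(A) sites. The genes were selected by name and position, as all rows on chromosome 5 whose symbol starts with PCDHA, PCDHB or PCDHG, of every biotype. This gave 58 of the 33857 genes listed, with 15 in the alpha cluster, 19 in the beta cluster and 24 in the gamma cluster. Of these, 5 are annotated as pseudogenes, and together they lie on the + strand of chromosome 5 between 140786136 and 141512981 (hg38). The locus itself was proposed from earlier results of the comparison of CFIm25-m with mock control, in which genes of this stretch of the chromosome stood apart. The fold changes of its members below are therefore a description. Where the fit across all genes called a member, this is given as a count beside the share of all genes and is no independent test.

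The mock control group held 2 samples that the labels call control H9 cells. The paper describes its mock controls as transfected with the empty CRISPR/Cas9 vector. The CFIm25-m group held 3 samples of cells edited near the NUDT21 start codon. Each was taken as a different puromycin-selected clone from the paper's description, because the labels give replicate numbers only. All were grown in mTeSR medium without further treatment. The labels call the edited cells CFIm25 KO, whereas the series title calls them KD, and the paper describes the clones as making a shortened CFIm25 at a low level. Each edited clone was sequenced as 1 sample, so a difference between clones cannot be told apart from a difference between libraries. The paper describes the mock controls as separately picked clones. P-values measure only the spread between these 5 samples.

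Clustered protocadherins are cell adhesion proteins of the cadherin superfamily. In neurons, each cell uses its own combination of isoforms, chosen from many promoters, and this gives the cell a surface identity that lets its branches recognise and avoid each other. In the alpha and gamma clusters each variable first exon has its own promoter and is spliced to constant exons that all isoforms of the cluster share. The beta genes are single-exon genes with no constant exons. The C-type genes at the end of the alpha and gamma clusters are regulated differently from the alternate isoforms and are used more uniformly in neurons. CTCF and cohesin bring these promoters to distal enhancers, while DNA methylation, SMCHD1 and SETDB1 are known to silence them. Most of these promoters carry a conserved sequence element around the letters CGCT.

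The upstream sequence shows how closely related these promoters are within a cluster. Promoters were taken from RefSeq (GRCh38.p14, 250 bases before to 50 bases after each gene start), and 47 of the 58 members were matched by symbol, 13 alpha, 14 beta and 20 gamma. The letters CGCT, searched on both strands, were in 46 of these 47 promoters (97.9%) and in 70.0% of all 35116 promoters. The most frequent 8-letter sequence was then looked up within each cluster, which makes it a description of the same promoters. In the alpha cluster it was ATGTCGCT, in 9 of 13 promoters and in 0.234% of all promoters. In the beta cluster it was GTGGCGCT, in 13 of 14 promoters and in 1.15% of all promoters. In the gamma cluster it was GCCGCTGT, in 11 of 20 promoters and in 1.63% of all promoters. None of these was found in a promoter of either other cluster, and each contains CGCT, so that it overlaps the shorter motif. In alpha GATGTCGC was equally frequent (9 promoters), and in beta GGTGGCGC was (13 promoters). Neither of these contains CGCT, and the ties were settled by alphabetical order.

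The following upstream windows are printed 5′ to 3′ on the + strand, which all members use, with the 8-letter sequence in capitals. They were picked to show members with high levels and members whose values are described below.
PCDHA6, chr5:140827898-140827927: ggagccgcatgATGTCGCTgtctaccatga
PCDHA7, chr5:140834173-140834202: atggccacatgATGTCGCTctttaccgcaa
PCDHA10, chr5:140855842-140855871: aaagccaccggATGTCGCTgtcgtccacaa
PCDHB5, chr5:141135180-141135205: taggacgcctgGTGGCGCTgcaggct
PCDHB12, chr5:141208644-141208673: ggagacgcgtgGTGGCGCTgcaggataata
PCDHB16, chr5:141182311-141182340: gagaacgcgtgGTGGCGCTgcaggttaaga
PCDHGB5, chr5:141397866-141397895: tgactctgggcGCCGCTGTtggccaaagtg
PCDHGA10, chr5:141412934-141412963: ggactctgagcGCCGCTGTtcacctactag
PCDHGC3, chr5:141475883-141475912: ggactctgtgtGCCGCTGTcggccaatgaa
The capitals began 51, 85 and 44 bases before the RefSeq gene start in PCDHA6, PCDHA7 and PCDHA10. The distances were 15, 64 and 65 bases in PCDHB5, PCDHB12 and PCDHB16, and 70, 42 and 72 bases in PCDHGB5, PCDHGA10 and PCDHGC3. The PCDHB16 window is upstream only of the RefSeq start, since the gene as deposited starts earlier, at 141181399, and contains it.

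Values are normalized counts, in which the authors scaled the reads of each sample by its size factor. Total reads recovered from them were between 18754108 and 23372391 per sample, and single members held between 2 and 1035 reads. The embryonic stem cell markers of a fixed list were all detected, with 7 of 7 tested and 0 called by limma-trend (2 at an unadjusted p below 0.05). Over all 19232 tested genes, 2911 had an unadjusted p below 0.05 by limma-trend, beside which all such counts below stand. Of the 3 mesoderm and 5 fibroblast markers, 1 and 3 were tested and 0 were called by limma-trend (0 and 2 at an unadjusted p below 0.05). Endoderm markers were near 0, with summed normalized counts of 0.900 to 6.01 per sample. The neural progenitor and neuron markers summed to 455.3 and 425.6 in mock control and to 233.5, 262.0 and 258.7 in the clones, so the sum was lower in every clone. Of 5 tested, 1 was called lower by limma-trend, DCX, which held the largest part of the sum in every sample. By limma-trend 2 had an unadjusted p below 0.05, DCX and STMN2. STMN2 went the other way, with 5.76 and 2.90 in mock control and 12.0, 11.7 and 22.1 in the clones. The other tested markers, ELAVL3, SOX1 and TUBB3, had negative log2 fold changes. PAX6, too low to be tested, was above both mock controls in every clone. The part of the lower marker sum in the protocadherin values was not tested. The samples were not equally alike. Chi-square per degree of freedom between samples was 1.77 for the mock control pair and 8.22 to 30.7 for pairs of edited clones, and the third clone was the most distant from every other sample.

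The edited gene was lower in each clone. NUDT21 (chr16:56429133-56452199) was at 6503 and 6398 normalized counts in mock control and at 4035, 3281 and 3400 in the CFIm25-m clones. The groups did not overlap, and the log2 fold change was -0.86 ± 0.11 (SE) with an adjusted p of 0.00431 by limma-trend with Benjamini-Hochberg adjustment over all 19232 tested genes. Without the first or the second mock control sample the adjusted p was 0.0854 and 0.0722.

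RNA of all 3 clusters was present in unedited cells. In mock control, the summed normalized count was 2077 and 2029 over the alpha genes. It was 3396 and 3308 over the beta genes and 2006 and 2030 over the gamma genes. The beta cluster thus held 45.4% and 44.9% of the counts of the locus. In bulk RNA, a larger or smaller share of cells using a gene and more or less RNA per cell cannot be told apart.

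Levels differed widely within each cluster. To compare genes, normalized counts were divided by the deposited gene length in kilobases. The highest mock control means per kilobase in the beta cluster were 259 for PCDHB5, 140 for PCDHB2 and 105 for PCDHB15, beside a median of 21.9 over all 19 beta genes. In the alpha cluster PCDHA11 stood highest with 53.8 per kilobase, followed by PCDHA10 with 35.7 and PCDHA12 with 29.8. In the gamma cluster the highest were PCDHGB5 with 46.5, PCDHGA10 with 34.8 and PCDHGB7 with 33.0. Alpha and gamma genes share their constant exons and are annotated on top of each other, and the setting by which reads in shared exons were counted is not given in the sources used here. A median of 53.4% of exonic bases in the alpha genes and 56.4% in the gamma genes was not shared with another member, against 100% in the beta genes. Divided by unshared exonic length, PCDHA11 stayed highest in alpha with 101 per kilobase, but PCDHA12 with 62.8 then stood above PCDHA10 with 43.0. PCDHGA10 moved from the second to the fourth place of the gamma cluster.

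The summed level of each cluster was higher in every edited clone than in both mock controls. The alpha sum was 2520, 2440 and 2994 in the 3 clones, 1.29 times the mock control mean. The beta sum was 4495, 3621 and 4634, which is 1.27 times the mock control mean, and the second clone was closest to mock control. The gamma sum was 2309, 2123 and 2535, or 1.15 times the mock control mean, again with the smallest difference in the second clone. Over all members the sum was 7478 and 7367 in mock control and 9324, 8184 and 10164 in the clones.

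**Figure D1:**
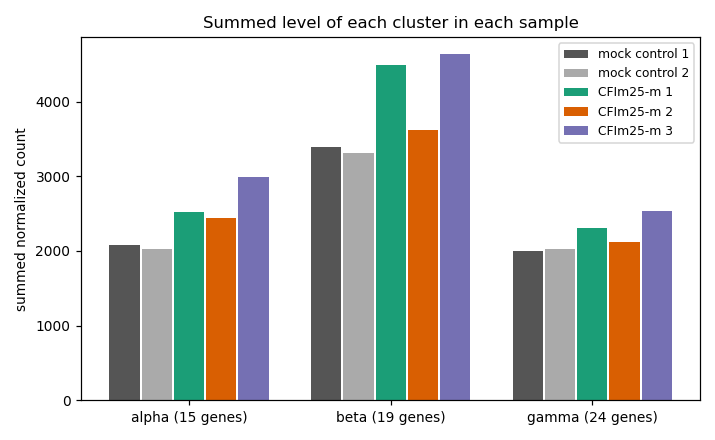
Summed normalized count of the alpha, beta and gamma genes, 1 bar per sample, with the axis starting at 0. In each cluster all 3 clones lie above both mock controls, and the second clone is the lowest of the clones in each cluster.

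Gene by gene, positive log2 fold changes outnumbered negative ones. Fold changes are on the log2(value + 1) scale and were computed for genes that reached 10 normalized counts in 2 or more samples. This left 56 members, without PCDHB1 and the pseudogene PCDHGB9P, and PCDHGC5 passed only through the clones. Of the 56, 45 had a positive and 11 a negative log2 fold change. The median was 0.41 over the 15 alpha genes, 0.37 over 18 beta genes and 0.19 over 23 gamma genes, beside -0.01 over all 19232 tested genes. By clone, the median difference to the mock control mean was 0.38, 0.28 and 0.53 for alpha. It was 0.54, 0.03 and 0.61 for beta and 0.27, 0.00 and 0.34 for gamma. The second clone was therefore near mock control in the beta and gamma medians but not in the alpha median. Genes annotated as antisense, sense intronic or TEC (1673 tested) also stood above protein-coding genes in the same clones, with a median excess of 0.16, 0.06 and 0.49 on the log2 scale and -0.04 between the mock controls. The part of this shift in the protocadherin values was not tested.

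The fit across all genes placed few members past its threshold. By limma-trend 2 members were called higher, where 0.941% of all tested genes were, and 1 member was called lower, where 0.936% were. The other 53 were not called. In 22 members every clone lay above both mock controls (17.0% of all tested genes) and in 5 every clone lay below both (19.8%). Since the locus was chosen on this comparison, nothing is read from these shares. No member was called when either mock control sample was left out, where 25 and 26 genes in all were called higher and 38 and 34 lower. Without the first clone PCDHB17P and PCDHA6 were called higher, among 60 genes higher and 100 lower in all. Without the second clone 4 members were called higher and 1 lower, of 96 and 125 genes. Without the third clone 5 and 2 were called, of 536 and 533 genes. The counts over all genes also changed with the sample left out, but not always in the same direction. Leaving out the second clone lowered the counts over all genes and raised the number of members called higher.

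In the alpha cluster the larger values belonged to a stretch of neighbouring genes. All 8 genes from PCDHA2 to PCDHA9 had a log2 fold change between 0.41 and 1.42, while PCDHA12, PCDHA13, PCDHAC1 and PCDHAC2 were between -0.68 and -0.07. This stretch was singled out after its values were seen. The largest changes were those of PCDHA6, PCDHA7 and PCDHA3, all alternate isoforms. PCDHA6 was at 54.2 and 81.1 normalized counts in mock control and at 78.2, 257 and 284 in the clones, a log2 fold change of 1.42 ± 0.47 (SE). The first clone lay within the mock control range and the other two far above it. PCDHA7 was at 32.3 and 65.6 in mock control and at 118, 102 and 107 in the clones (1.22 ± 0.29), so the clones were alike and it was the mock controls that were 2-fold apart. PCDHA3 was at 122 and 102 in mock control and at 268, 145 and 303 in the clones (1.02 ± 0.28). The second clone was much closer to mock control than the others.

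The highest alpha genes had small differences. PCDHA10 was at 550 and 538 normalized counts in mock control and at 555, 554 and 620 in the clones (0.08 ± 0.11). PCDHA11 was at 365 and 311, and at 392, 382 and 389 in the clones (0.20 ± 0.13). PCDHA10 held 26.5% of the alpha counts in both mock controls and 22.0%, 22.7% and 20.7% in the clones, a smaller share in each clone. The share of PCDHA11 overlapped between the groups, with 17.6% and 15.3% in mock control and 15.6%, 15.6% and 12.98% in the clones. PCDHA12 was at 166 and 159, and at 136, 149 and 151 in the clones (-0.16 ± 0.16), with a small gap between the groups. PCDHA13, a low member, was at 33.4 and 33.8 and at 28.1, 34.2 and 31.7 in the clones, where the groups overlapped.

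Both members called higher lie in the beta cluster. PCDHB17P, a transcribed pseudogene (chr5:141155996-141159061), was at 76.1 and 85.9 normalized counts in mock control and at 170, 212 and 206 in the clones (1.26 ± 0.18). PCDHB16, which encodes a beta protein (chr5:141181399-141186399), was at 134 and 124 and at 294, 235 and 264 in the clones (1.03 ± 0.16). In both, each clone was well above both mock controls. PCDHB8 came next, with 27.7 and 16.4 in mock control and 35.1, 30.6 and 56.8 in the clones (0.85 ± 0.37), and its mock controls differed almost as much as the groups. PCDHB12, named after its values were seen, was at 181 and 194 and at 287, 279 and 320 in the clones (0.65 ± 0.14). PCDHB6 had the lowest log2 fold change of the cluster (-0.56 ± 0.35) from low values, 26.5 and 30.9 in mock control and 18.0, 15.3 and 25.0 in the clones.

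The 3 highest beta genes had small differences. PCDHB5 was at 908 and 855 normalized counts in mock control and at 1037, 881 and 976 in the clones (0.13 ± 0.11). PCDHB2 was at 586 and 572 and at 640, 569 and 633 in the clones (0.08 ± 0.11). PCDHB15 was at 435 and 405 and at 469, 379 and 521 in the clones (0.11 ± 0.15). In each of these the groups overlapped. PCDHB3 and PCDHB7, named for their spread, were each highest in the third clone and lower in the second clone than in both mock controls. PCDHB3 was at 289 and 326 in mock control and at 448, 256 and 550 in the clones, and PCDHB7 at 16.1 and 12.5, and at 25.1, 9.003 and 27.9. Of the 4 tested pseudogenes of the locus, 3 had a positive log2 fold change.

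In the gamma cluster single isoforms set the clones apart. PCDHGA10 (chr5:141412987-141512979), the second highest gamma gene per kilobase in mock control, was at 229 and 233 normalized counts there and at 30.1, 113 and 36.6 in the clones. Its log2 fold change of -2.19 ± 0.46 was the lowest of the locus, and its share of the gamma counts without pseudogenes went from 11.6% in both mock controls to 1.31%, 5.36% and 1.46%. Every clone was below mock control, but the first and the third lay far below the second. The genes on either side were close to mock control. PCDHGB6 was at 122 and 109 in mock control and at 108, 109 and 157 in the clones, and PCDHGB7 at 176 and 152, and at 160, 175 and 174.

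PCDHGA3 was high in a single clone. It was at 25.4 and 30.9 normalized counts in mock control and at 45.1, 160 and 26.9 in the clones, so that its log2 fold change of 1.03 ± 0.59 rested on the second clone. Its share of the gamma counts was 7.64% in that clone and between 1.07% and 1.97% in the other 4 samples. PCDHGA6 was at 124 and 133 in mock control and at 245, 157 and 292 in the clones (0.79 ± 0.24), and PCDHGB3 at 69.2 and 84.0, and at 120, 91.8 and 162 (0.66 ± 0.25). Both followed the order seen in the beta cluster, with the second clone nearest to mock control. PCDHGA11, named after its values were seen, was unlike them in that the clones were alike, at 238, 241 and 225 beside 156 and 153 in mock control (0.60 ± 0.14).

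The groups overlapped in the next 3 gamma genes. PCDHGB5, the highest per kilobase, was at 225 and 227 normalized counts in mock control and at 291, 205 and 289 in the clones (0.19 ± 0.18), where the groups overlapped. PCDHGA8 was at 49.6 and 41.5 and at 27.1, 28.8 and 42.3 in the clones (-0.49 ± 0.30). The pseudogene PCDHGB8P was at 27.7 and 16.4 and at 12.0, 15.3 and 18.3 in the clones (-0.48 ± 0.39). In the gamma genes PCDHGA2 (0.53 ± 0.25) and PCDHGA5 (0.64 ± 0.25) every clone was above both mock controls, and in PCDHGA12 (-0.43 ± 0.32) every clone was below both. PCDHGA12 was at 32.3 and 26.1 in mock control and at 22.0, 18.9 and 23.1 in the clones. These last genes were named after their values were seen.

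The C-type isoforms had a lower median log2 fold change than the alternate isoforms. Their median log2 fold change was -0.08 over 5 genes, beside 0.42 over the 13 alternate alpha genes and 0.21 over the 19 alternate gamma genes. PCDHAC2 was at 112 and 86.9 normalized counts in mock control and at 57.1, 50.4 and 78.9 in the clones (-0.68 ± 0.26), and every clone was below both mock controls. PCDHAC1 was at 116 and 100.4 and at 89.2, 93.6 and 132 in the clones (-0.07 ± 0.22), which overlapped mock control. PCDHGC3, the highest C-type gene, was at 154 and 141 and at 107, 175 and 146 in the clones (-0.08 ± 0.22), again without separation. PCDHGC4 (0.12 ± 0.37) and PCDHGC5 (-0.12 ± 0.48) were low, with 6.01 to 22.1 normalized counts over both genes and all 5 samples. By clone, the C-type median was below the alternate alpha median in all 3 clones. In the second clone it was above the alternate gamma median, at 0.04 against -0.07. The difference between C-type and alternate isoforms was not tested.

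The members varied more between samples of a group than the typical tested gene did. The median gap between the highest and the lowest clone was 0.60 on the log2 scale over the members and 0.36 over all tested genes. The median gap between the mock controls was 0.20 over the members and 0.10 over all tested genes. These genes were not matched on level, and a range over 3 samples is wider than a gap between 2. In 8 of 56 members the highest clone was over 2-fold above the lowest, as in 11.1% of all tested genes. These were PCDHA3, PCDHA6, PCDHB3, PCDHB7, PCDHGA3, PCDHGB1, PCDHGA10 and PCDHGC5. The mock controls were over 2-fold apart in 1 member, PCDHA7, and in 3.29% of all tested genes.

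The members over 2-fold from the mock control mean were then counted for each clone. In the first clone 5 members were over 2-fold higher and 1 lower, where 5.21% of all tested genes passed this fold in either direction. In the second clone 4 were higher and 1 lower (5.42%), and in the third 10 were higher and 1 lower (8.38%). PCDHGA10 was the lower member in each of them. Across members, the log2 levels of the mock control pair had a Pearson r of 0.945 over 15 alpha, 0.987 over 18 beta and 0.976 over 23 gamma genes. Between clones, r was 0.853 to 0.953 in alpha, 0.979 to 0.980 in beta and 0.795 to 0.964 in gamma. The lowest of these was that of the second and the third clones in gamma, and for each pair r was highest in beta. A shift shared by all members of a cluster leaves r unchanged. The median gap between the highest and the lowest clone was smallest in alpha. It was 0.33 on the log2 scale in alpha, 0.57 in beta and 0.70 in gamma. Genes of a cluster share library, depth and, in alpha and gamma, exons, so r is given as a description.

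By their medians, genes beside the locus were close to mock control. The 24 tested non-members were 10 before the alpha cluster, 10 after the gamma cluster and 4 between or overlapping the clusters. Of these, 0 were called by limma-trend, edgeR or DESeq2. By limma-trend 3 had an unadjusted p below 0.05, as had 2911 of all 19232 tested genes. The median log2 fold change was -0.02 before and -0.03 after the locus. Single genes lay between -0.18 and 0.43 before it and between -0.29 and 0.82 after it. Every clone was above both mock controls in PCDH12 (0.82 ± 0.26), the highest, and below both in RNF14 (-0.29 ± 0.13), the lowest. TAF7, which encodes a TFIID subunit and lies between the beta and gamma clusters, was at 3673 and 3836 normalized counts in mock control and at 3958, 3710 and 3184 in the clones (-0.06 ± 0.11). SLC25A2, a mitochondrial ornithine carrier gene also between these clusters, was near 0, with at most 1.15 in any sample. The other 3 tested genes inside the locus are noncoding: AC244517.1 (0.47 ± 0.32), AC244517.2 (0.48 ± 0.51) and AC005618.1 (0.35 ± 0.26), and they were named because they are all that remain. AC244517.1 was at 54.2 and 52.1 in mock control and at 77.2, 48.6 and 107 in the clones, the same order of clones as its beta neighbours. Reads of overlapping genes on the other strand cannot be told apart, since the strand setting of the counting is not given in the sources used here.

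**Figure D2:**
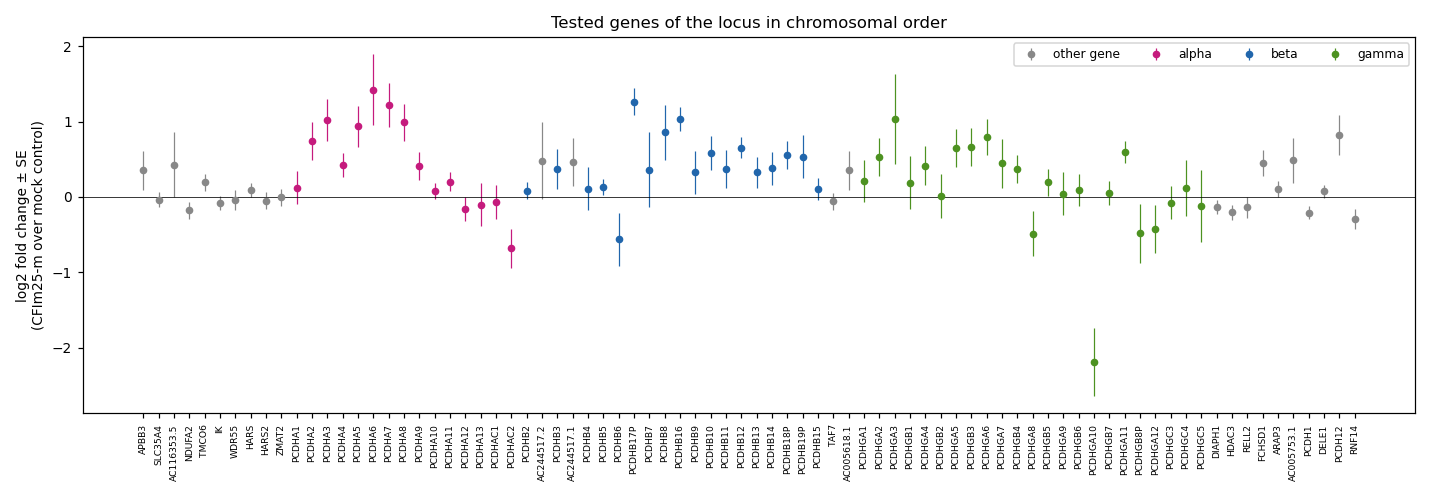
Log2 fold change (CFIm25-m over mock control) of the tested genes of the locus and its neighbours in chromosomal order, points with SE bars, coloured by cluster with other genes in gray. Among the alpha genes PCDHA6 is highest at 1.42, PCDHGA10 lies alone at -2.19, and genes outside the locus lie between -0.29 and 0.82.

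Protocadherins encoded as single genes outside the clusters were examined next. PCDH1 and PCDH12 are both among these and among the genes after the gamma cluster counted above, and both had an unadjusted p below 0.05. Of 11 tested non-clustered protocadherin genes 0 were called higher and 6 had an unadjusted p below 0.05, where 2911 of all 19232 tested genes had. Of the 6, PCDH8 was called lower by limma-trend, edgeR and DESeq2. Over the 11 tested genes the median log2 fold change was 0.45, beside 0.41, 0.37 and 0.19 in the alpha, beta and gamma clusters. Every clone was above both mock controls in PCDH18, PCDH12, PCDH17, PCDH7, PCDH19, PCDH9 and PCDH15, as in 17.0% of all tested genes. Every clone was below both in PCDH8, PCDH10 and PCDH1 (19.8%), and in PCDH11X the groups overlapped. A positive median was therefore not particular to the clustered genes. PCDH8, a protocadherin that regulates cadherin at the cell surface, was at 96.8 and 106 normalized counts in mock control and at 30.1, 21.6 and 25.0 in the clones. Its log2 fold change was -1.96 ± 0.26, with an adjusted p of 0.0064 by limma-trend. Without the first or second mock control sample the adjusted p was 0.0944 and 0.116.

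Regulators of the locus were expressed in all samples, and 0 were called by limma-trend, edgeR or DESeq2. Of 11 genes for CTCF, cohesin and their loading and release factors, 0 were called and 1 had an unadjusted p below 0.05 (2911 of all 19232 tested genes). The highest were RAD21, the cohesin kleisin subunit (-0.16 ± 0.10), and SMC1A, a cohesin ATPase (-0.16 ± 0.09). CTCF, named for its role, was at 2497 and 2507 normalized counts in mock control and at 2368, 2254 and 2077 in the clones (-0.17 ± 0.09). Of 15 genes of DNA methylation and silencing, 0 were called and 2 had an unadjusted p below 0.05. DNMT3B, a de novo DNA methyltransferase, was at 55851 and 57449 in mock control and at 41046, 43327 and 51168 in the clones (-0.33 ± 0.14, adjusted p = 0.293). TRIM28, a corepressor that recruits SETDB1, had a log2 fold change of -0.16 ± 0.11, and SMCHD1, named for its role, of 0.04 ± 0.10. In DNMT3B every clone was below both mock controls, as in 19.8% of all tested genes, but the difference did not pass the test. The same held for WAPL, SMC1A, CTCF, PDS5A, RAD21 and NIPBL. It also held for TET1, DNMT1, HDAC3, EHMT1, EHMT2, SETDB1 and TET3. In TET2 every clone was above both mock controls, and in the remaining regulators the groups overlapped.

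Of 18 genes for partners of these proteins, which include components of the WAVE complex, kinases and proteases, 0 were called by limma-trend, edgeR or DESeq2 and 1 had an unadjusted p below 0.05. The highest were CTNNB1, which encodes beta-catenin (-0.05 ± 0.11), and NCKAP1, a WAVE complex subunit (-0.29 ± 0.09). Of 13 tested neural genes, MAP2 was called higher and DCX lower, both genes for microtubule-associated proteins of neurons. MAP2 was at 98.0 and 93.6 normalized counts in mock control and at 491, 504 and 207 in the clones, a log2 fold change of 1.94 ± 0.33 with an adjusted p of 0.019 by limma-trend. DCX was at 282 and 273 in mock control and at 124, 135 and 118 in the clones (-1.14 ± 0.15, adjusted p = 0.0064 by limma-trend). These moved in opposite directions, and NES, the highest gene of this list, did not pass the test (-0.13 ± 0.11). MAP2 was not called without the first clone (adjusted p = 0.112), without the second (0.0822) or without either mock control (0.0974 and 0.0988). DCX was not called without either mock control (0.142 and 0.116).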

How the data were processed

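Poly(A+) RNA-seq of 2 mock control and 3 CFIm25-m samples was analysed. The split into control and edited samples and the replicate numbers were taken from the labels. The group names and the clone identities follow the paper. The authors deposited a normalized count per gene and sample, a signal in which reads were scaled by the size factor of their sample. The submitters' processing notes name HISAT2, Subread, featureCounts, DESeq2 and hg38, and counting settings are not given in the sources used here. Deposited group means, fold changes and p-values of the authors' own comparison were not used. Values were whole multiples of 1 step per sample, which gave whole reads (within 0.01) for 100% of values, totals of 18754108 to 23372391 per sample. The SE given with each log2 fold change came from the limma-trend fit. It measures the spread between samples and is not the counting error of these reads alone.

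Log2(value + 1) was tested by limma-trend (limma 3.58.1, R 4.3.3) for genes with at least 10 in at least 2 samples, with Benjamini-Hochberg adjustment over all 19232 genes and a threshold of 0.05. The test was run on simulated reads with the same dispersion in every gene. That setting does not show how the test behaves at the spread between these clones. Alternatives were edgeR 4.0.16 and DESeq2 1.42.0 on recovered reads, other pseudocounts, filters and scalings, no variance trend, a block for the replicate number and leaving out each sample. RefSeq positions of GRCh38 overlapped all 58 members. Exonic lengths shared between members came from gene models of another build, from which no coordinates were used. Protein sequences were not used here.

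The members, gene lists and tests were chosen with earlier results of these data known. Named genes were, in each cluster, the 3 highest per length in mock control and the 3 largest and 3 smallest fold changes. C-type genes, NUDT21, TAF7 and SLC25A2 were also named. Of each other list, the called genes were named, or otherwise the 2 with the highest mean. Others were named after their values were seen.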

Additional observations from a re-analysis of the deposited data

How the results depend on the processing

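With 2 mock control samples, calls depended on the variance model and on each sample. Over all tested genes, the counts higher and lower were 181 and 180 as reported, 349 and 279 by DESeq2, 21 and 25 without the variance trend, and 1043 and 1064 with a replicate block. They were 174 and 174 by edgeR and 152 and 156 with a filter at 50. Members called higher and lower were 2 and 1 as reported, 7 and 0 by DESeq2, 2 and 0 by edgeR or with a filter at 50, and 0 and 0 without the trend. PCDHGA10 was thus called by neither count model, and PCDHB17P and PCDHB16 by both. Without the trend no neural gene was called in either direction (0 and 0), and NUDT21 kept -0.86 but was not called (adjusted p = 0.106). The neighbouring genes' median changed from 0.035 to -0.037 with a filter at 50.

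Replicate numbers are shared between groups only as numbers: deviations of same-numbered samples correlated at 0.0072 and 0.018, and the third clone has no partner. The replicate block leaves that clone without weight. With it, 13 members were called higher and 2 lower, as were 2 and 3 non-clustered protocadherins, 3 regulators lower and 1 partner lower.

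Leaving out each sample in turn gave 25 to 536 genes higher and 34 to 533 lower, 0 to 5 members higher and 0 to 2 lower. The cluster medians were 0.32 to 0.45 (alpha), 0.24 to 0.61 (beta) and 0.03 to 0.31 (gamma). Non-clustered protocadherins called were 0 to 1 higher and 0 to 2 lower, regulators lower 0 to 2, partners lower 0 to 1, and neural genes 0 to 1 in each direction. The neighbours' median was 0.02 to 0.06, and NUDT21 was -0.95 to -0.80. The log2 ratios of the sums were 0.27 to 0.43 (alpha), 0.28 to 0.45 (beta) and 0.14 to 0.26 (gamma). With a mock control left out, the lone sample was assumed to vary like the clones. Causes were not tested, except that these fits hold fewer samples.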
